A study of Mus musculus with 366 samples.

Results

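Zdhhc21, Mal2, Cpeb2, Lmo1, Tsc22d2 and BC023202 are 6 genes that had been picked in an earlier analysis of mouse aortas and were chosen by the negative correlation of their strain averages with the area of atherosclerotic lesions, being lower in strains with larger lesions. That relation, over these same arrays, chose the genes and is therefore not a result here, and lesion areas were not analysed here, so that the label could not be checked. The genes were found on the array by the gene symbol of the platform annotation, which gave 9 probe sets of 5 genes. BC023202 had no probe set under that symbol, and the probe set that the study's own list gives for it was added, which made 10 of 45141 probe sets, for 6 genes beside 17097 with a probe set of a single symbol. Lmo1, Mal2 and BC023202 had 1 probe set each, Zdhhc21 and Tsc22d2 had 2 each and Cpeb2 had 3, and the probe sets of a gene are numbered below with the first as its main one.

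The Ath-HMDP mice were female F1 offspring of females from a panel of inbred strains and a C57BL/6J male that carried human transgenes, APOE-Leiden in a heterozygous and CETP in a homozygous state. The location and copy number of the transgenes are unknown, and all groups, C57BL/6J included, share these transgenes and 1 set of C57BL/6J chromosomes, so that each strain is compared in its F1 with C57BL/6J. The mice ate chow for 8 weeks and a Western diet for 16 weeks, and at 24 weeks of age the aorta was taken, from its arch down to the middle of the abdomen, with the fat around it removed. Each of the 366 arrays holds the RNA of 1 mouse, and the 101 strains comprise 36 BXD strains (C57BL/6J by DBA/2J), 21 AXB/BXA strains (A/J), 9 CXB strains (BALB/c), 4 BXH strains (C3H) and 31 classical inbred strains.

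Protein palmitoylation is the attachment of a fatty acid to cysteines, which anchors proteins to membranes, and Zdhhc21 encodes 1 of the enzymes that carry it out and is known for its role in endothelium and hair follicles. Mal2 encodes a membrane protein of the MARVEL family that polarized epithelial cells and hepatocytes need to carry cargo across the cell. Cpeb2 encodes an RNA-binding protein that recognises a short element near the end of messenger RNAs and controls their polyadenylation and translation. Lmo1 encodes a LIM-only nuclear protein that does not bind DNA itself but joins transcription factors into complexes, and it is known from the nervous system and as an oncogene of T cell leukaemia. Tsc22d2 belongs to the TSC22 domain family, whose members work with NRBP and WNK kinases in the response to osmotic stress. BC023202 is the name of a cDNA clone, and no function is given for it here.

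The upstream sequences are shown for Zdhhc21 and Lmo1, the members for which the RefSeq promoter table of the GRCm38.p6 build holds an entry. The deposited values name no genome build. Each line gives the 250 bases before the start site of the gene, 5′ to 3′ on the strand of the gene, which is the minus strand for both. The Zdhhc21 stretch lies at chr4:82859674-82859923 and the Lmo1 stretch at chr7:109175208-109175457. Lmo1 had 2 entries, of which only the first was taken, and the other was not examined. Capitals mark a GC box (GGGCGG or its complement) in Zdhhc21 and a homeodomain core (TAATTA) in Lmo1.
Zdhhc21: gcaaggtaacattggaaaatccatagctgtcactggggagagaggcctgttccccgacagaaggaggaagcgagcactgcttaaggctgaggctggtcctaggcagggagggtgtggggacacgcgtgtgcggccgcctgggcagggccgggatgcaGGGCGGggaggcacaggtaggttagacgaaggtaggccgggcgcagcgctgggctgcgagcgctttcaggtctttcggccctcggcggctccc
Lmo1: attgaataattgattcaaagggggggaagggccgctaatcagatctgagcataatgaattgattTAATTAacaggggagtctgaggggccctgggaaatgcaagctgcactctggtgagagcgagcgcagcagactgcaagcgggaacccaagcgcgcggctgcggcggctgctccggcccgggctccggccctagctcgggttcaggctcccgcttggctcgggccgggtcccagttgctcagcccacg
The GC box of Zdhhc21 begins 93 bases before the start site, and 32.7% of all 32851 promoter stretches of this length hold GGGCGG on either strand. The TAATTA of Lmo1 begins 186 bases before the start site, and 4.84% of the stretches hold it. Neither of the stretches shown had TATAAA, which 12.4% of the stretches hold on either strand. CCAAT, which 33.8% hold on either strand, occurred once in Zdhhc21, 240 bases before the start site, and not in Lmo1. An E box (CANNTG), the kind of site bound by the basic helix-loop-helix partners of LIM-only proteins, occurred once in Lmo1, 17 bases before the start site, and not in Zdhhc21, against 66.2% of all stretches. GC content was 65.6% in Zdhhc21 and 61.2% in Lmo1, with a median of 52.4% over all stretches. These matches describe letters in a window and no binding was measured.

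The values are log2 intensities, and the medians of the arrays lay between 3.17 and 3.40. The tissue label was checked by smooth muscle markers, of which 6 were measured: smooth muscle actin Acta2 ran from 8.37 to 13.0 over the arrays (median 12.05) and the smooth muscle myosin Myh11 from 4.58 to 11.66 (median 9.39). Mylk had a median of 9.19 (lowest 6.84), while Cnn1, Lmod1 and Actg2, with medians of 7.79, 5.36 and 5.11, fell to 2.95, 3.0 and 2.93. Some fat markers were high in every array despite the cleaning, with the brown fat uncoupling protein Ucp1 between 12.33 and 13.2 and the adipokine Adipoq between 11.73 and 12.75, while others varied, such as leptin (Lep, 2.45 to 7.97) and the deiodinase Dio2 (4.42 to 10.45). Scores of other tissues also varied, with 41.0% of the arrays more than 1 above the median for skeletal muscle, 25.4% for sympathetic neurons and 22.1% for cardiac muscle. In epithelial markers, 24 arrays of 18 strains were high, meaning that their mean over 7 squamous or 9 simple epithelium genes lay more than 1 above the median of all arrays. The squamous score had a median of 2.74 and reached 9.70, and the keratins Krt4 and Krt13, which line squamous epithelium such as that of the oesophagus, reached 13.03 and 12.51 against medians of 2.60 and 2.60. Krt5, Krt14, Krt15 and Sprr1a reached 9.59, 8.65, 10.81 and 10.66. Not all markers rose, as Krt6a reached only 3.32 and the simple epithelium genes Cldn3 and Elf3 only 3.73 and 3.48. Of these 24 arrays, 6 also had a median correlation with the other arrays under 0.96 (lowest 0.943, typical 0.982), and no array outside the 24 did. Leaving out these 6 is therefore no check apart from leaving out the 24. None of the arrays of the progenitor strains was among the 24. The tests and nearest genes that rest on these arrays are given with and without them.

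Zdhhc21 and Cpeb2 were measured at moderate levels and Mal2 and BC023202 near the dim end of the scale. Zdhhc21 had a median of 5.52 over the 366 arrays for its main probe set (lowest 4.69, highest 6.40) and 5.94 for the other. Cpeb2 had medians of 5.09, 3.47 and 3.07 for its 3 probe sets, and Tsc22d2 had 4.75 and 5.45. Lmo1 had a median of 4.49 and ran from 3.10 to 6.55, and Mal2 had a median of 3.33 and ran from 2.14 to 6.72. BC023202 had a median of 3.56 and stayed between 2.94 and 4.05. The mean of all 45141 probe sets had a median of 3.28, and only Cpeb2 3 among the 10 lay below it. Intensities of different probe sets are not comparable as amounts of RNA, so no order of the genes is drawn from them.

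The share of variance that lay among strains, taken from 360 arrays of the 95 strains with at least 2 arrays, was largest for Lmo1 at 58.4%, which was above that of 98.6% of all probe sets. It was 47.1%, 33.3% and 34.7% for Cpeb2 2, 1 and 3, 37.0% for Tsc22d2 1, 27.6% for Mal2 and 22.6% and 22.5% for Zdhhc21 1 and 2, against a median of 17.9% over all probe sets. Tsc22d2 2 (15.1%) lay under that median. BC023202 had an estimate of -0.729%, so that its mice differed within strains as much as between them. In limma's F test across strains, 9 of the 10 probe sets passed an adjusted p of 0.05, with BC023202 the exception (adjusted p = 0.568), beside 77.0% of all probe sets. The strain averages had entered the choice of the genes, and this test is therefore no independent support of it.

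Lmo1 spanned the widest range of strain averages, from 3.56 to 5.98. The 4 arrays of the lowest strain, AXB19b/PgnJ, read 3.15, 3.44, 3.52 and 4.12, and the 3 arrays of A/J, next in order, read 3.27, 3.38 and 4.06. At the other end the 2 arrays of CE/J read 5.60 and 6.37 and the 4 arrays of KK/HlJ read 5.36, 5.92, 6.04 and 6.55. The arrays of the lowest and highest strains did not overlap. None of the 94 steps between neighbouring strains exceeded the SD within strains of 0.40, and the largest was 0.22, between 129X1/SvJ (5.20) and BXD9/TyJ (5.43). With this many strains in the range, neighbouring averages lie close, and the SD is that of single arrays. Small steps therefore cannot decide whether the strains form groups.

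Cpeb2 1 stood apart in 1 strain. The 4 arrays of CXB8/HiAJ read 5.81, 6.14, 6.22 and 6.26 for the main probe set, a mean of 6.11, and the next strain, NOD/ShiLtJ, had a mean of 5.60. This step of 0.51 was the only 1 of 94 that exceeded the SD within strains (0.24). CXB8/HiAJ was also the highest strain for Cpeb2 3, at 3.69, 3.73, 3.98 and 4.21, but there the only step above the SD (0.26 against 0.23) lay below BXH8/TyJ (3.67), so that both strains stood above the others. For Cpeb2 2 no step exceeded the SD of 0.35, the highest strain was BXH8/TyJ at 4.31, 4.34, 4.48 and 4.54, and CXB8/HiAJ had a mean of 3.98. The lowest strain for Cpeb2 1 was BXD5/TyJ, whose arrays read 4.67, 4.73, 4.75 and 4.78.

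The same strain stood at or near the top for other members. CXB8/HiAJ had the highest mean of Tsc22d2 1 (4.89, 5.43, 5.44 and 5.68), the second highest of Mal2 (4.26, 4.30, 4.39 and 4.50), rank 5 of 95 for Zdhhc21, rank 9 for Lmo1 and rank 25 for BC023202. NOD/ShiLtJ ranked first for Zdhhc21 and Mal2, second for Cpeb2 and Tsc22d2 and had rank 3 for Lmo1 and rank 61 for BC023202. It had 2 arrays, of which 1 was high in epithelial markers and also among the 6 of low correlation, and its Mal2 values were 3.87 and 5.76. A/J ranked 94 of 95 for Lmo1, 93 for Mal2 and 87 for Cpeb2, but 27 for Zdhhc21 and 9 for BC023202. As the genes were chosen for a shared direction over strain averages, shared ranks over strains are a description.

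Zdhhc21, Tsc22d2 and Mal2 were read over the strains in the same way, with the same limit. The strain averages of Zdhhc21 1 among strains with at least 2 arrays lay between 5.20 in BXD43/RwwJ (4.96, 5.21, 5.22 and 5.42) and 5.90 in NOD/ShiLtJ (5.43 and 6.37), a range of 0.70 with an SD within strains of 0.20. Tsc22d2 1 was lowest in BXD31/TyJ (4.21 and 4.29) and Mal2 was lowest in BXH22/KccJ (2.36, 2.64, 2.77 and 3.0). No step between neighbouring strains exceeded the SD within strains for these 3 probe sets, nor for BC023202, which lay between 3.25 and 3.79. The largest step of Mal2 came close, at 0.45 between CXB8/HiAJ (4.36) and NOD/ShiLtJ (4.81) against an SD of 0.49.

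The probe sets of a gene did not measure the same quantity equally well. Over the 95 strain averages, the probe sets of Cpeb2 correlated with r of 0.574 to 0.714 and those of Zdhhc21 with r of 0.580, and the pair of Tsc22d2 with only 0.336. Within strains the values were 0.345 to 0.612, 0.387 and 0.214. These correlations share samples and arrays and carry no test. Tsc22d2 2 is therefore given beside the differences called for Tsc22d2 1, while strain orders are those of the main probe set.

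Recombinant strains of the BXD set had lower levels of 5 of the 10 member probe sets than the classical inbred strains. On strain averages, Tsc22d2 1 was 4.61 ± 0.17 in the BXD strains (SD, n = 36) and 4.92 ± 0.25 in the classical inbred strains (n = 31), a difference of -0.31 (SE 0.05, adjusted p = 5.76e-05 in limma). The BXD averages lay between 4.25 and 5.21 and the classical inbred ones between 4.28 and 5.27, so the groups overlapped over most of their range. The brighter probe set of the gene did not show it, as Tsc22d2 2 was 5.44 ± 0.17 against 5.47 ± 0.18 (-0.02, SE 0.04, adjusted p = 0.787). Lmo1 was 4.46 ± 0.37 against 4.84 ± 0.64 (-0.37, SE 0.12, adjusted p = 0.0366) and Zdhhc21 1 was 5.44 ± 0.15 against 5.61 ± 0.16 (-0.17, SE 0.04, adjusted p = 0.00118). Zdhhc21 2 (-0.12, adjusted p = 0.0215) and Cpeb2 1 (-0.15, adjusted p = 0.0486) also passed in limma, which made 5 of the 10 probe sets, all lower, beside 4.22% of all probe sets that passed and were lower and 9.34% that passed in either direction. The count was 3 without the 24 epithelial arrays and 3 without only the 6 of low correlation among them.

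**Figure D1:**
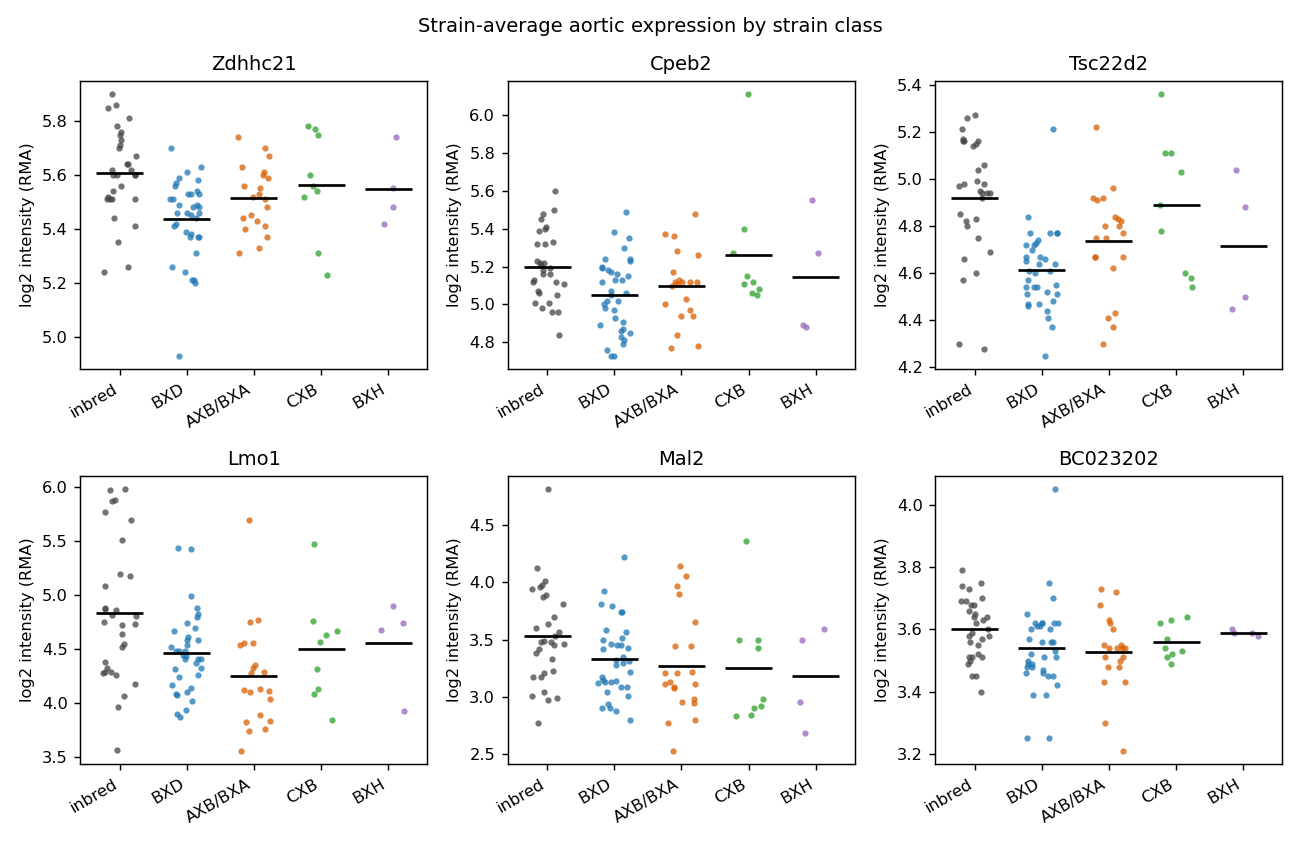
Strain averages of the main probe set of each gene (points, 1 per strain, log2 intensity) by strain class, with the mean of each class as a black bar; the vertical scale differs between panels. The BXD strains of Tsc22d2 centre on 4.61 and the classical inbred strains on 4.92, and a single CXB strain stands apart for Cpeb2 at 6.11.

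In the AXB/BXA strains Lmo1 was the only 1 of the 10 probe sets whose difference from the classical inbred strains passed the adjusted threshold, while 5 had an unadjusted p under 0.05. Lmo1 was 4.25 ± 0.47 in the AXB/BXA strains (SD, n = 21), a difference of -0.58 (SE 0.14, adjusted p = 0.00598 in limma), beside 1.69% of all probe sets that passed and were lower and 4.24% that passed. Tsc22d2 1 differed by -0.18 (SE 0.06, adjusted p = 0.0694) and Tsc22d2 2 by -0.04 (SE 0.05, adjusted p = 0.781). In the CXB set (n = 9) and the BXH set (n = 4) limma passed 0 of the 10 probe sets, and 0 had an unadjusted p under 0.05, with 0.0288% and 0.00665% of all probe sets passing. The differences of Lmo1 were -0.34 (SE 0.19) in the CXB set and -0.27 (SE 0.26) in the BXH set. All 10 probe sets had lower means in the BXD and in the AXB/BXA strains, with medians of -0.14 and -0.09 against 0.00 and 0.01 over all probe sets. The comparisons share the classical inbred strains as their control.

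Across all 5 classes, limma's F test passed 3 of the 10 probe sets, Zdhhc21 1 (adjusted p = 0.0129), Tsc22d2 1 (adjusted p = 0.000479) and Lmo1 (adjusted p = 0.0258), beside 8.09% of all. Zdhhc21 1 no longer passed without the 24 arrays high in epithelial markers (adjusted p = 0.140) or with only the strains that have at least 3 arrays (adjusted p = 0.0533), and without the 24 arrays in the BXD contrast Zdhhc21 2 and Cpeb2 1 were lost as well (adjusted p = 0.0770 and 0.146). With only the strains that have at least 3 arrays, Lmo1 of the BXD contrast moved to -0.24 (adjusted p = 0.209) and Cpeb2 1 to -0.10 (adjusted p = 0.261). Cpeb2 1 was also lost there with medians per strain, centred arrays and weights by arrays (adjusted p = 0.0536, 0.0545 and 0.0906 in limma). In the same contrast Lmo1 was lost with weights by arrays (-0.32, adjusted p = 0.0552) and Zdhhc21 2 with medians per strain (-0.11, adjusted p = 0.0576). The strain averages behind these tests had entered the choice of the genes.

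Among the progenitors of the recombinant sets, compared with C57BL/6J, the difference with the smallest adjusted p was that of Lmo1 in A/J. The 6 arrays of C57BL/6J read 4.25, 4.31, 4.35, 4.80, 4.96 and 5.15, and the 3 arrays of A/J read 3.27, 3.38 and 4.06, all below them. The difference was -1.07 (SE 0.24, adjusted p = 0.0102 in limma). It passed in 24 of the 26 fits that left out 1 array of the 5 strains, and without A/J replicate 2 or A/J replicate 3 it did not, the difference lying between -1.31 and -0.92 and the adjusted p reaching 0.0896. Lmo1 was the only 1 of the 10 probe sets that passed, beside 4.86% of all probe sets, 3.63% of them lower. The share of all probe sets whose A/J arrays lay wholly below those of C57BL/6J was not computed.

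**Figure D2:**
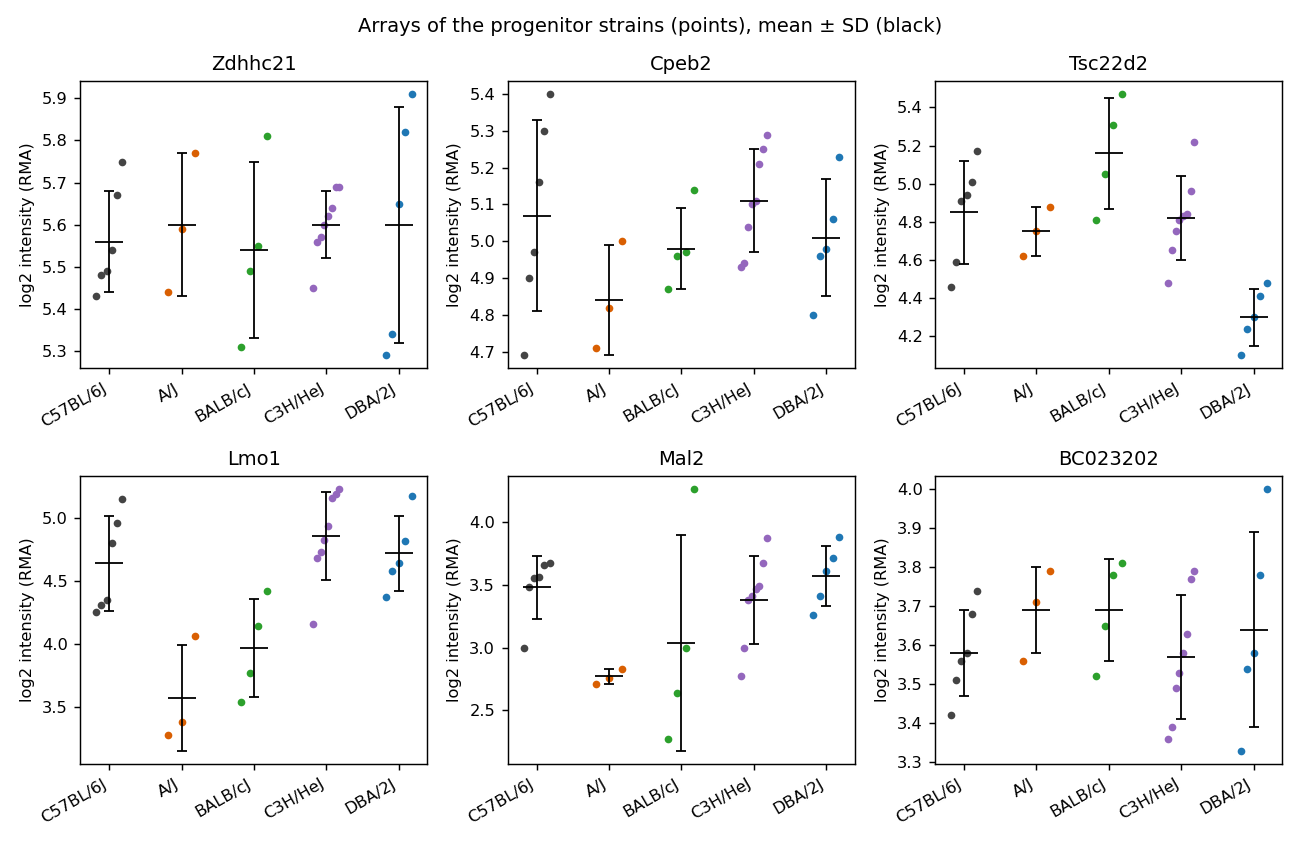
Log2 intensity of the main probe set of each gene in every array of the 5 progenitor strains (points), with the mean and SD in black; the vertical scale differs between panels. The 3 A/J arrays of Lmo1 (3.27 to 4.06) lie below all 6 C57BL/6J arrays, and the 5 DBA/2J arrays of Tsc22d2 (4.10 to 4.48) reach only the lowest C57BL/6J array.

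Tsc22d2 was lower in DBA/2J, by 1 of its probe sets. Tsc22d2 1 read 4.10, 4.24, 4.30, 4.41 and 4.48 in DBA/2J and 4.46, 4.59, 4.91, 4.94, 5.01 and 5.17 in C57BL/6J, so that only the highest DBA/2J array overlapped the lowest C57BL/6J array. The difference was -0.54 (SE 0.13, adjusted p = 0.0183 in limma), the only 1 of the 10 probe sets that passed, beside 3.53% of all probe sets, 2.21% of them lower. Tsc22d2 2 did not show it, with a difference of 0.00 (SE 0.11, adjusted p = 0.992). The call was lost without DBA/2J replicate 1, DBA/2J replicate 2 or C57BL/6J replicate 5, with a difference between -0.62 and -0.48 and an adjusted p of up to 0.0633.

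In BALB/cJ, Cpeb2 2 was lower than in C57BL/6J. Its arrays read 2.69, 2.82, 3.25 and 3.50 in BALB/cJ and 3.39, 3.42, 3.67, 3.69, 4.25 and 4.34 in C57BL/6J, and the highest BALB/cJ array overlapped the lower C57BL/6J arrays. The difference was -0.72 (SE 0.22, adjusted p = 0.0482 in limma), beside 7.08% of all probe sets that passed, 5.04% of them lower. The call lay at the threshold: it was lost in 20 of the 26 fits that left out 1 array (adjusted p up to 0.158), and with each array centred on its median (adjusted p = 0.0549). The other Cpeb2 probe sets differed by -0.08 (adjusted p = 0.733) and 0.09 (adjusted p = 0.778) in BALB/cJ.

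Some differences of similar size missed the threshold. Lmo1 in BALB/cJ read 3.54, 3.77, 4.14 and 4.42, a difference from C57BL/6J of -0.67 (SE 0.22, adjusted p = 0.0700 in limma). In A/J, Cpeb2 2 read 2.81, 3.02 and 3.34 and Mal2 read 2.71, 2.76 and 2.83, all below the C57BL/6J arrays, with differences of -0.74 (SE 0.24, adjusted p = 0.0844) and -0.72 (SE 0.28, adjusted p = 0.149). These values lie near the dim end of the scale. The share of all probe sets without such overlap was not computed, so the lack of overlap is not read as a trait of the members. In C3H/HeJ, with 8 arrays, limma passed 0 of the 10 probe sets and 0 had an unadjusted p under 0.05, beside 8.85% of all probe sets that passed, and the differences lay between -0.10 and 0.23. All 4 contrasts share the C57BL/6J arrays. The averages of these strains were among those that chose the genes, so the p-values and counts are no independent support.

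The recombinant strains were set beside the averages of both parents. For Lmo1, 17 of the 21 AXB/BXA strains lay between A/J (3.57) and C57BL/6J (4.64), 1 lay below both and 3 above, with AXB8/PgnJ at 5.70 as the highest. For Tsc22d2 1, 34 of the 36 BXD strains lay between DBA/2J (4.30) and C57BL/6J (4.85), with BXD31/TyJ at 4.25 below and BXD18/TyJ at 5.21 above, whereas for Tsc22d2 2, where both parents were at 5.36, 25 lay above both. Where the parents were close, most strains fell outside them: for Zdhhc21 1, 29 of the 36 BXD strains lay below both DBA/2J (5.60) and C57BL/6J (5.56), for Lmo1 27 did (4.72 and 4.64) and for Mal2 26 did (3.57 and 3.48). The BXD strains split for Cpeb2 1, with 15 below and 17 above both parents (5.01 and 5.07). For Cpeb2 1, 7 of the 9 CXB strains lay above both BALB/cJ (4.98) and C57BL/6J (5.07), with CXB8/HiAJ the highest at 6.11. Counts against the parents were not taken for probe sets outside the members.

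**Figure D3:**
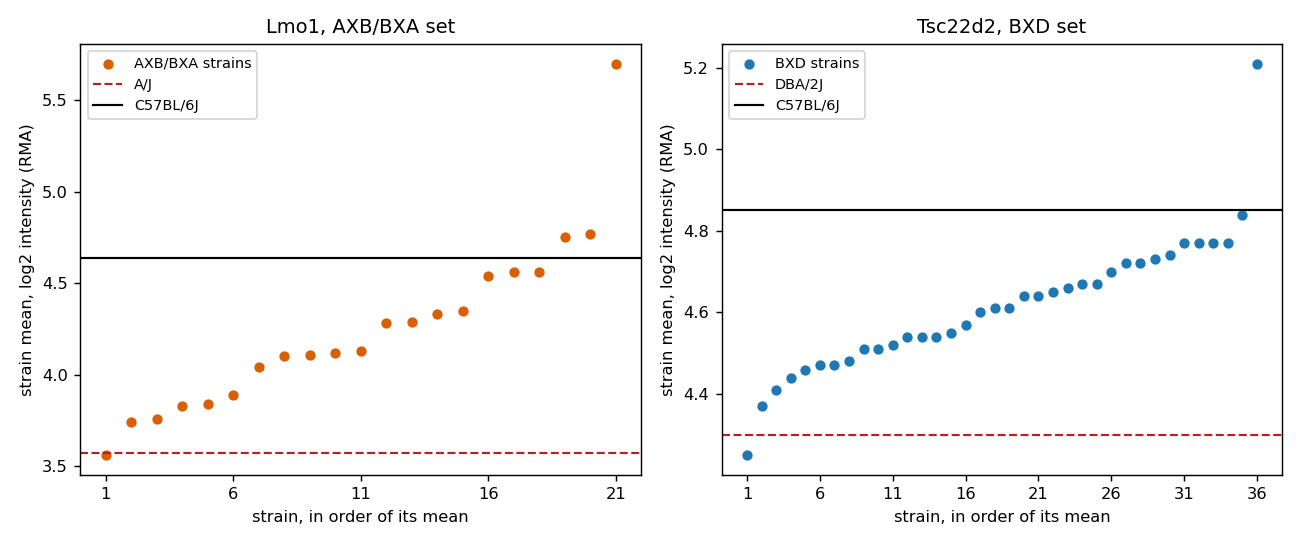
Strain averages (log2 intensity) of Lmo1 in the 21 AXB/BXA strains and of Tsc22d2 1 in the 36 BXD strains, each set in order of its average, with the averages of both parents as lines. Most points, 17 and 34, lie between the parental lines. Both panels show sets whose parents were called different, and the count between the lines depends on their distance.

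Lmo1 was also read in 3 related substrains of AXB19. AXB19/PgnJ had a mean of 4.35 ± 0.27 (SD, n = 4), AXB19a/PgnJ 4.28 ± 0.34 and AXB19b/PgnJ 3.56 ± 0.40, with arrays of 4.11 to 4.63, 3.87 to 4.62 and 3.15 to 4.12. The arrays of AXB19b/PgnJ overlapped those of both others, and the difference was not tested. BALB/cJ and BALB/cByJ, substrains of a common stock, had Lmo1 means of 3.97 ± 0.39 (n = 4) and 4.18 ± 0.28 (n = 3), a difference smaller than their SD.

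The genes that work with the members were described from 5 lists, read from 1 probe set per gene. Counts across strains stand beside the 77.0% of all probe sets that passed the same F test. That share counts dim probe sets too, while the lists take the brightest probe set of a gene. Among the probe sets above the median 21625 passed, a larger share, so the 77.0% is no matched background for these lists. Counts against C57BL/6J stand beside the 4.86% that passed in A/J, 7.08% in BALB/cJ, 8.85% in C3H/HeJ and 3.53% in DBA/2J. Of the palmitoylation genes, 28 were measured, 26 passed the F test across strains and the median share of variance among strains was 25.8% against 17.9% over all probe sets. The lysosomal thioesterase Ppt1, which removes fatty acids from proteins, had 74.1% of its variance among strains, and the acyltransferase Zdhhc6 had 62.6%. Ppt1 was higher than in C57BL/6J (7.62) in BALB/cJ (8.19), C3H/HeJ (8.16) and DBA/2J (8.16), with limma differences of 0.57, 0.54 and 0.54 (adjusted p = 0.00059, 8.35e-05 and 0.000494). Zdhhc6 was lower in A/J (-0.37, adjusted p = 0.0123), BALB/cJ (-0.43, adjusted p = 0.0016) and C3H/HeJ (-0.24, adjusted p = 0.0242). Of the 28, 2 passed in A/J, both lower, 5 in BALB/cJ (4 lower), 3 in C3H/HeJ (1 lower) and 1 in DBA/2J, which was higher, with the shares of all probe sets given above. Zdhhc21 itself did not pass in any of these contrasts.

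Of the genes of cytoplasmic polyadenylation and translation, 17 of 17 measured passed across strains, beside 77.0% of all probe sets, and Cpsf4, a subunit of the cleavage and polyadenylation complex, had 67.7% of its variance among strains. Cpsf4 was higher than in C57BL/6J (5.40) in A/J (5.85), BALB/cJ (5.86) and DBA/2J (5.94), by 0.45, 0.46 and 0.53 in limma (adjusted p = 0.044, 0.0185 and 0.00603). The family member Cpeb1 was higher in C3H/HeJ by 0.47 (adjusted p = 0.0232) and the deadenylase Parn was lower in BALB/cJ by -0.40 (adjusted p = 0.0121). Of the 10 measured TSC22, NRBP and WNK genes 9 passed across strains, against the same 77.0%, and Tsc22d1, with 53.6%, was higher in BALB/cJ and C3H/HeJ by 0.33 and 0.31 (adjusted p = 0.0451 and 0.0189).

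Of 19 LIM-only factors and partners, 15 passed across strains, beside the 77.0% of all probe sets. Lmo2, the blood and endothelial relative of Lmo1, was higher than in C57BL/6J (7.36) in BALB/cJ (7.81) and C3H/HeJ (7.82), by 0.45 and 0.47 (adjusted p = 0.0153 and 0.00258 in limma), and Lmo4 was higher in DBA/2J by 0.42 (adjusted p = 0.00759). Lmo3 was lower in A/J by -0.30 (adjusted p = 0.0385), as the only 1 of the 19 that passed there, at means of 2.43 and 2.73 near the dim end. In C3H/HeJ the partner Ldb2, which bridges LIM proteins, Gata2 and the LIM homeobox factor Isl1 were higher by 0.58, 0.56 and 1.21 (adjusted p = 0.0186, 0.0196 and 0.021). Of 20 MARVEL proteins and partners, 14 passed across strains, a smaller share than the 77.0%. Mal, the closest relative of Mal2 in the list, was higher in C3H/HeJ by 1.53 (means 6.00 and 4.47, adjusted p = 0.00128), and Tpd52, which binds Mal2, was lower in A/J, BALB/cJ and C3H/HeJ by -0.39, -0.43 and -0.39 (adjusted p = 0.0365, 0.00954 and 0.004). Cmtm3 was lower in A/J by -0.74 (adjusted p = 0.00441).

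Within strains, after the strain average was removed from every array, members moved together in 7 of 15 pairs of main probe sets, all in the same direction. These deviations do not contain the strain averages by which the genes were chosen. Over 360 arrays, the highest correlations were those of Cpeb2 with Mal2 (r = 0.409, rho = 0.337) and Zdhhc21 with Mal2 (r = 0.398, rho = 0.284), followed by Zdhhc21 with Cpeb2 (r = 0.319, rho = 0.279) and Zdhhc21 with Tsc22d2 (r = 0.309, rho = 0.326). Lmo1 followed Mal2 (r = 0.258, rho = 0.353), Cpeb2 (r = 0.234, rho = 0.243) and, most weakly, Zdhhc21 (r = 0.151, rho = 0.159). The permutation p-values of r ran from 1e-05, the smallest that 100000 permutations can give, to 0.0148, and those adjusted over the 15 pairs from 5e-05 to 0.0318. The permutation p-values of rho for the same pairs ran from 1e-05 to 0.0109 (adjusted p up to 0.0204). By rho, 2 further pairs passed, Tsc22d2 with Lmo1 (0.138, permutation p = 0.0265, adjusted p = 0.0442) and Tsc22d2 with Mal2 (0.151, permutation p = 0.0108, adjusted p = 0.0204). As a background without a test, the share of all other 45140 probe sets whose r with the gene was at least 0.151, the weakest of the 7, was 11.4% for Zdhhc21, 8.92% for Cpeb2, 22.3% for Tsc22d2, 8.08% for Lmo1, 8.59% for Mal2 and 3.55% for BC023202. No pair with BC023202 passed, and Cpeb2 and Tsc22d2 had r = 0.002 (permutation p = 0.972, adjusted p = 0.972).

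**Figure D4:**
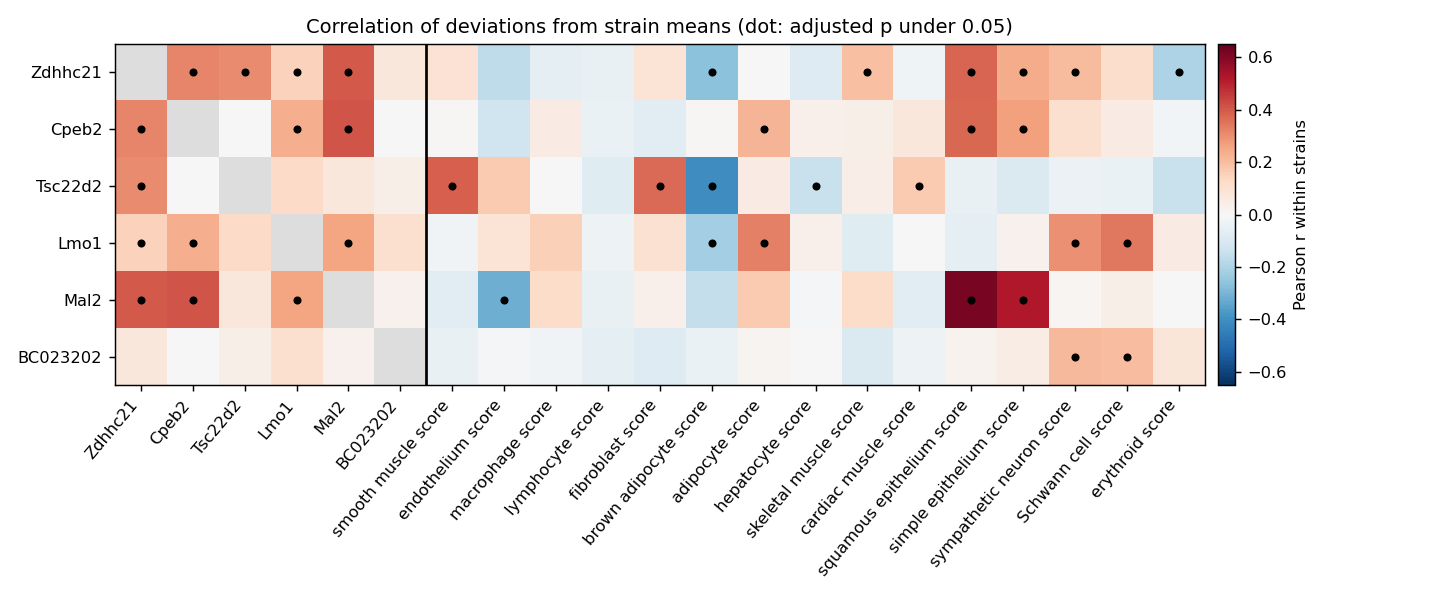
Pearson correlations over 360 arrays of the deviations from strain averages between the main probe sets (left of the line) and with 15 cell type marker scores (right of the line); red is positive, blue negative, and a dot marks an adjusted p under 0.05. Mal2 and the squamous epithelium score give the highest value, 0.617, and the row of BC023202 carries dots only for the nerve scores.

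The 24 arrays high in epithelial markers moved these values. Without them, on 335 arrays, the same 7 pairs passed, but Zdhhc21 with Mal2 went from 0.398 to 0.200 and Cpeb2 with Mal2 from 0.409 to 0.232, while Lmo1 with Mal2 went from 0.258 to 0.443. The weakest of the 7 was then 0.191, which between 1.56% (BC023202) and 17.9% (Tsc22d2) of all other probe sets reached with a member. Zdhhc21 with Cpeb2 went from 0.319 to 0.191 and Zdhhc21 with Tsc22d2 from 0.309 to 0.341. Without the 2 arrays farthest from the median of the first gene of a pair, the 7 values lay between 0.160 and 0.381. With replicate 2, 3 or 4 of every strain left out, Zdhhc21 with Lmo1 did not pass (r = 0.172, 0.105 and 0.163, adjusted permutation p = 0.0627, 0.298 and 0.057). Cpeb2 with Lmo1 did not pass without replicate 3 (r = 0.161, adjusted permutation p = 0.0572). With the brightest probe set of each gene in place of the main one, Zdhhc21 with Lmo1 no longer passed (r = 0.052, permutation p = 0.418, adjusted p = 0.557), while Cpeb2 with Tsc22d2 (r = 0.223, adjusted p = 0.00306, permutation p = 0.00143) and Tsc22d2 with Mal2 (r = 0.297, permutation p = 0.00026, adjusted p = 0.00065) did. Fewer cells of a type and less RNA per cell cannot be told apart in these samples.

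Mal2 followed the epithelial markers within strains. Its correlation was 0.617 with the squamous score (rho = 0.241, permutation p = 5e-05 and 0.00031, adjusted p = 0.000375 and 0.00215 over 90 pairs of gene and score) and 0.518 with the simple epithelium score (rho = 0.306, permutation p = 1e-05 for both, adjusted p = 0.000129 and 0.000112). Without the 2 arrays farthest from the median of Mal2 the r values were 0.534 and 0.435. In the 24 arrays high in epithelial markers Mal2 had a median of 4.06 (2.87 to 6.72), against 3.30 (2.14 to 5.20) in the others, and in 17 of the 24 it lay above every array of the same strain that was not high in these markers, in 14 above all other arrays of the strain. The relation was computed again without these 24 arrays. Then r was -0.003 with the squamous score (permutation p = 0.956, adjusted p = 0.967) and 0.154 with the simple epithelium score (permutation p = 0.0351, adjusted p = 0.123). The 24 were picked by these same scores, so leaving them out narrows the range of the scores. A low r in the other arrays therefore cannot decide whether the relation rested on the 24. In the remaining arrays Mal2 followed the adipocyte score (r = 0.466, permutation p = 1e-05, adjusted p = 0.000129), which over all arrays had r = 0.169 (permutation p = 0.0148, adjusted p = 0.0534) and rho = 0.317 (permutation p = 1e-05, adjusted p = 0.000112). Mal2 also went against the endothelium score, at r = -0.319 (rho = -0.254, permutation p = 2e-05 and 6e-05, adjusted p = 0.000225 and 0.000491), which was -0.276 without the 2 farthest arrays and passed as well without the 24 arrays (-0.204, permutation p = 0.00367, adjusted p = 0.0220) and without the 6 of low correlation (-0.218, permutation p = 0.00084, adjusted p = 0.00504).

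**Figure D5:**
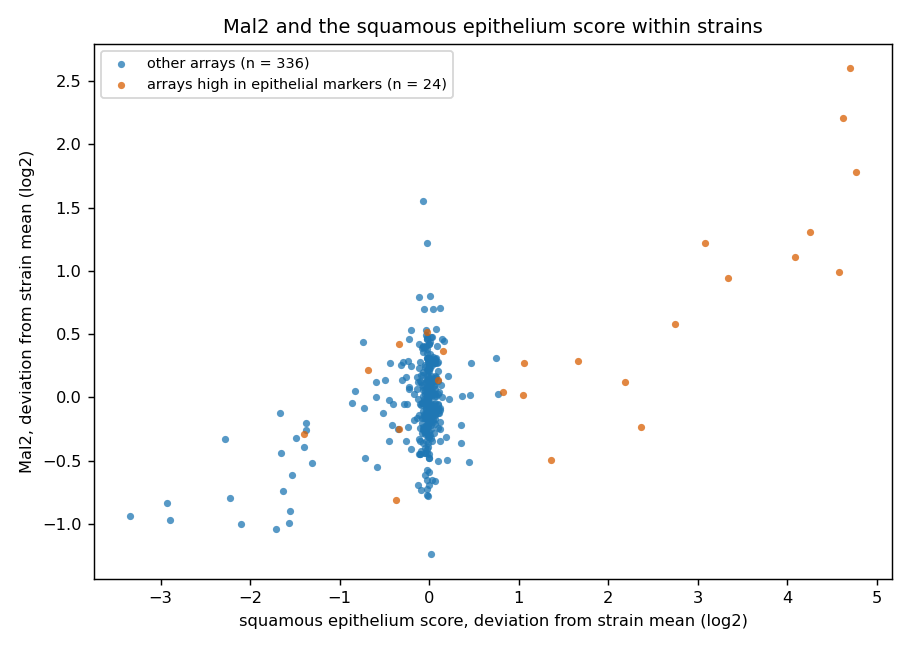
Deviation of Mal2 from its strain average against the deviation of the squamous epithelium score (both log2), 1 point per array, with the 24 arrays high in epithelial markers in orange. The correlation of 0.617 over all arrays was -0.003 once the orange arrays were left out and the strain averages recomputed. The orange arrays were picked by their epithelial scores, so leaving them out also narrows the range of the squamous score.

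Zdhhc21 and Cpeb2 were also set beside the squamous score with and without these arrays. Over all arrays they correlated with the squamous score at 0.379 and 0.373 (permutation p = 5e-05 and 3e-05, adjusted p = 0.000375 and 0.00027), with rho of 0.001 (permutation p = 0.986, adjusted p = 0.986) and 0.170 (permutation p = 0.00524, adjusted p = 0.0236), and r without the 2 farthest arrays was 0.349 and 0.336. Without the 24 arrays the values were -0.145 (permutation p = 0.0308, adjusted p = 0.115) and 0.016 (permutation p = 0.778, adjusted p = 0.894). As for Mal2, the narrowed range of the score keeps these values from deciding what the relations rested on. Zdhhc21 was above every array of its strain outside the 24 in 15 of them and Cpeb2 in 13, against 12 for Lmo1, 9 for BC023202 and 5 for Tsc22d2. Against all other arrays of the strain the counts were 11 for Zdhhc21, 11 for Cpeb2, 9 for Lmo1, 6 for BC023202 and 5 for Tsc22d2. These counts, and those of Mal2, were not taken for probe sets outside the members. Cpeb2 followed the adipocyte score with r = 0.223 over all arrays and 0.361 without the 24 (permutation p = 0.0012 and 1e-05, adjusted p = 0.006 and 0.000129). It did not pass without replicate 2 or 3 of every strain (r = 0.214 and 0.103, adjusted permutation p = 0.0693 and 0.494). Zdhhc21 went against the brown adipocyte score at -0.269 and -0.239 (permutation p = 3e-05 and 0.00014, adjusted p = 0.00027 and 0.0014). This relation did not pass without replicate 1 of every strain (r = -0.172, adjusted permutation p = 0.115). Zdhhc21 also passed with the sympathetic neuron score at 0.206 (rho = 0.229, permutation p = 0.00082 and 0.0001, adjusted p = 0.00461 and 0.00075), which was 0.218 without the 24 arrays (permutation p = 0.00037, adjusted p = 0.00303). Without replicate 1 or 3 of every strain Zdhhc21 did not pass there (r = 0.157 and 0.169, adjusted permutation p = 0.183 and 0.0748). Its relations with simple epithelium (0.241, permutation p = 0.00191, adjusted p = 0.00905), skeletal muscle (0.194, permutation p = 0.0027, adjusted p = 0.0121) and erythroid cells (-0.199, permutation p = 0.00323, adjusted p = 0.0138) passed over all arrays (for simple epithelium by r only, rho = 0.117, permutation p = 0.0615, adjusted p = 0.173) and not without the 24 (-0.082, 0.077 and -0.160, permutation p = 0.182, 0.231 and 0.0166, adjusted p = 0.431, 0.484 and 0.0713). The part of these arrays in the differences between strains was not tested, except that the tests of strain and class were repeated without these arrays.

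Tsc22d2 moved with smooth muscle and fibroblast markers, while the endothelium score did not pass (r = 0.170, permutation p = 0.016, adjusted p = 0.0551). Its main probe set correlated with the smooth muscle score at 0.389 (rho = 0.329) and with the fibroblast score at 0.366 (rho = 0.362), and against the brown adipocyte score at -0.406 (rho = -0.403), with a permutation p of 1e-05 for each r and rho and adjusted p of 0.000129 for r. Without the 2 arrays farthest from the median of Tsc22d2 the r values were 0.366, 0.372 and -0.421. They were 0.386, 0.369 and -0.407 without the 24 arrays. The smooth muscle score itself ran from 5.04 to 10.24 over the arrays and the brown adipocyte score from 9.68 to 11.6. Tsc22d2 2 gave 0.254 with smooth muscle (permutation p = 5e-05, adjusted p = 0.0005), 0.163 with fibroblasts (permutation p = 0.00666, adjusted p = 0.0285) and -0.034 with brown adipocytes (permutation p = 0.607, adjusted p = 0.809), so the relation with brown adipocyte markers rested on 1 probe set. Its highest value was 0.360 with squamous epithelium (permutation p = 0.0001, adjusted p = 0.0009). There Tsc22d2 1 had -0.049, and -0.208 without the 24 arrays (permutation p = 0.00043, adjusted p = 0.00322). Over all arrays Tsc22d2 1 also passed with cardiac muscle (0.172, permutation p = 0.00697, adjusted p = 0.0285) and against hepatocytes (-0.147, permutation p = 0.0108, adjusted p = 0.0421). Tsc22d2 2 did not, at 0.025 (permutation p = 0.704, adjusted p = 0.845) and -0.017 (permutation p = 0.778, adjusted p = 0.875). Neither relation of Tsc22d2 1 passed when replicate 1, 2, 3 or 4 of every strain was left out.

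Lmo1 moved with markers of fat and of nerve. It correlated with the Schwann cell score at 0.341 (rho = 0.365), the adipocyte score at 0.326 (rho = 0.321) and the sympathetic neuron score at 0.299 (rho = 0.278), with a permutation p of 1e-05 for each r and rho and adjusted p of 0.000129 for r, and against the brown adipocyte score at -0.222 (rho = -0.217, permutation p = 0.0008, adjusted p = 0.00461). Without the 24 arrays the values were 0.329, 0.329, 0.284 and -0.254, and without the 2 arrays farthest from the median of Lmo1 they were 0.315, 0.321, 0.276 and -0.214. The relation with brown adipocytes did not pass without replicate 3 of every strain (r = -0.201, adjusted permutation p = 0.0576). BC023202 passed with the nerve scores and no other, at 0.213 with sympathetic neurons and 0.203 with Schwann cells (permutation p = 0.0009 and 0.00067, adjusted p = 0.00476 and 0.00431). With sympathetic neurons it did not pass without replicate 1 or 4 of every strain (r = 0.199 and 0.189, adjusted permutation p = 0.078 and 0.0729). Over all arrays none of the 6 genes passed with the macrophage or lymphocyte score, but Lmo1 did with the macrophage score once the 6 arrays of low correlation were left out (0.177, permutation p = 0.00621, adjusted p = 0.0329, against 0.156, permutation p = 0.0147 and adjusted p = 0.0534 with them). In all, 23 of the 90 pairs passed, 17 positive and 6 negative. The share of all probe sets that would pass with these scores was not computed, so the count is not read as a trait of the members.

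The genes most like each member were named by the highest Pearson correlation over the 95 strain averages and over the 360 deviations within strains, as a description without a test. Lmo1 was nearest to Hspa12a (0.716), the desaturase-related Fads3 (0.679), the peroxisomal fatty acid transporter Abcd2 (0.643), Prr32 (0.616) and Sncg (0.614) over strains, and to Fads3 (0.531), Lasp1, Chn1, Mfsd12 and the parathyroid hormone receptor Pth1r (0.488) within strains. Tsc22d2 was nearest to the hedgehog receptor Ptch1 (0.781), Slf2, the chromatin factor Rsf1, Gpatch8 and Hipk3 (0.729) over strains and to Rsf1 (0.619), Phyhipl, Cdc42ep3, the dystrophin gene Dmd and Stox2 (0.534) within them. Mal2 was nearest to Prr32 (0.715), the glycolipid transfer protein Gltp (0.661), Hprt, Ptgr1 and Hspa12a (0.616) over strains, and within strains to Pdzk1ip1 (0.722), Exph5, Rassf7, E-cadherin (Cdh1, 0.679) and sciellin (Scel, 0.676). Cdh1 is itself on the simple epithelium list. Without the 24 arrays none of the 5 within strains stayed, and the nearest of Mal2 were Aldh1a7 (0.588), Tmem45b, leptin (Lep, 0.533, which is on the adipocyte list), Tmem120b and Parm1 (0.510). Over strains, Hspa12a and Prr32 stood among the 5 nearest of both Lmo1 and Mal2, with and without these arrays. Without them, 4 of the 5 of Lmo1 and 4 of the 5 of Tsc22d2 stayed, over strains as well as within them.

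Cpeb2 was nearest to the transporter Slc10a6 (0.600), Errfi1, Ripk4, the TSC22 family member Tsc22d3 (0.582) and the phosphatase Dusp16 (0.579) over strains. Within strains its nearest were Irf2bp2 (0.537), Tsc22d3 (0.536), Ripk4 (0.533), Slc10a6 (0.518) and the co-chaperone Fkbp5 (0.497), so that 3 genes appeared in both lists. Zdhhc21 was nearest to the matrix protein Matn2 (0.650), Rmnd5a, the deubiquitinase Usp9x, Oga and Fbxo22 (0.590) over strains and to Mfap3l (0.510), Slc39a6, Ckmt1, Ptgr1 and Gng4 (0.441) within strains. BC023202 reached only 0.475 with the secretory chaperone Scg5 over strains, followed by Map4, Klc1, Myt1l and Chl1 (0.446), and 0.338 with Tob2 within strains, followed by Meg3, Pgm2l1, Epha5 and Slc31a1 (0.304). Without the 24 arrays, 3 of the 5 of Cpeb2 over strains and 4 within them stayed, 2 and 0 of Zdhhc21, and 2 and 3 of BC023202. The nearest of Zdhhc21 within strains were then Tbc1d19 (0.390), Snapc3, Usp9x, Norad and Ccser2 (0.361).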

How the data were processed

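Aortic RNA of 366 female mice was hybridised to Affymetrix arrays, with 1 array for each, named HT_MG-430A in the labels and HT-MG_430 PM in the paper. Per the labels, the authors used GCOS and RMA, and the deposited values are log2 intensities; versions and a genome build are not given in the sources used here. RMA puts all arrays on 1 distribution, which removes shifts shared by most probe sets. The number of arrays, not read depth, limits the precision. Of the probe sets, 28898 have 1 gene symbol in the platform annotation, 551 several and 15692 none. Columns were matched to strains by their labels (0 left unmapped), replicates were numbered in the order of the sample records, and no batch or date is given. Mice are taken as separate samples of a strain, as labelled.

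The members and the gene lists were chosen with earlier results of these data known. The main probe set of a gene is the first that the study lists for it, and the brightest probe set was an alternative. limma 3.58.1 (R 4.3.3) was fitted to all 45141 probe sets, with Benjamini-Hochberg adjustment over all of them and a threshold of 0.05: an F test across 95 strains with at least 2 arrays, an F test and contrasts of strain averages over 5 strain classes, and contrasts of 4 progenitors with C57BL/6J on the 26 arrays of these strains. The share of variance among strains is the intraclass correlation. Within strains, deviations from the strain average were correlated, with two-sided p-values from 100000 permutations of arrays within strains, adjusted over 15 pairs of members and over 90 pairs of members and marker scores. A score is the mean log2 value of a list of marker genes, and the 15 lists cover smooth muscle, endothelium, macrophages, lymphocytes, fibroblasts, brown adipocytes, adipocytes, hepatocytes, skeletal and cardiac muscle, squamous and simple epithelium, sympathetic neurons, Schwann cells and erythroid cells. No member is on a marker list. Named genes are the members, the 5 genes most like each in strain averages and within strains, up to 4 genes per list of relatives and contrast that passed, and the 2 relatives per list whose variance lay most among strains; not all are printed. The tests were tested on simulated data with known differences. Alternatives were strains with at least 3 arrays, probe sets above the median, array weights, centred arrays, the deviations without their leading principal component (which held 17.5% of the variance within strains), medians per strain, weights by arrays, AXB19 substrains averaged, a shared spread, rank correlation, and leaving out replicates; leaving out the 6 arrays that stood apart and the 24 high in epithelial markers was chosen after seeing the data, also for the nearest genes. Sequences came from RefSeq promoters of GRCm38.p6.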

Additional observations from a re-analysis of the deposited data

Results flagged for a closer look

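The lowest C57BL/6J array of Mal2 read 3.0, far from the nearest of the 5 others at 3.48. The gap was 0.717 of the range of the 6 arrays, above the critical value of 0.625 for that number. The array was replicate 1 and was not high in epithelial markers. It was the only such value among 24 groups of arrays tested (the 6 genes in every progenitor with at least 4 arrays), where chance gives about 5%, and A/J with 3 arrays was not tested.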

How the results depend on the processing

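The count of members that differed across strains (9 of 10, lowest 8) and across classes (3 of 10, lowest 2) moved by at most 1.5 times under every alternative, the 2 coming with strains of at least 3 arrays and without the 24 epithelial arrays. The 8 came with probe sets above the median, where Cpeb2 3 was not tested. In the BXD contrast the count fell from 5 to 3 with medians per strain, strains with at least 3 arrays, weights by arrays, without the 6 arrays that stood apart and without the 24 epithelial arrays, and was 2 in place of 1 in the AXB/BXA contrast with probe sets above the median. In the progenitor contrasts, array weights gave 2 calls in A/J and 3 in DBA/2J, centring gave 0 in BALB/cJ and probe sets above the median gave 2. Leaving out single arrays gave 0 to 2 calls in A/J, 0 to 2 in BALB/cJ, 0 in C3H/HeJ and 0 to 1 in DBA/2J, and leaving out replicates gave 5 to 7 of the 15 pairs of members and 16 to 19 of the 90 pairs with scores. Reversed signs were those of Zdhhc21 with skeletal muscle (0.194 to -0.195 without the first principal component) and, without the epithelial arrays, of Zdhhc21 with squamous (-0.145) and simple (-0.082) epithelium and of Mal2 with squamous epithelium (-0.003). The cause was not tested.

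Counts over all probe sets moved by more than 1.5 times from 34765 to 21625 (strains, above the median), from 1912 to 1200 (AXB/BXA, at least 3 arrays), from 13 to 33, 41 and 25 (CXB: weights, above the median, without the 6 arrays), from 3 to 1 (BXH, above the median), from 2195 to 1017 (A/J without replicate 3), from 3194 to 2004 (BALB/cJ without replicate 2) and from 1594 to 5133 (DBA/2J, array weights). The setting above the median tested only the brighter probe sets, so its counts come from fewer tests. For strains, the share that passed in that setting was larger than over all probe sets, not smaller. No paired analysis was possible because the labels give each mouse its own number. Probe sets near the dim end (Mal2, BC023202, Cpeb2 2 and 3) may understate differences.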
